A study of Homo sapiens with 9 samples.

Results

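Decitabine (DAC) at 20 nM was compared with no treatment in HEL, a human erythroleukemia cell line that carries features of red cell and platelet precursors. The comparison took 2 of the 9 arrays of the series by their titles, 1 of HEL cells with 20 nM DAC and 1 of untreated HEL cells, and the remaining arrays were 1 of HEL cells given 5 nM of PMA, a phorbol ester that activates protein kinase C, over 48 h, and 6 of K562, a human line from chronic myeloid leukemia. Of the K562 arrays 2 held untreated cells, and the others held cells given DAC at 100 nM, PMA at 5 nM, or 25 or 50 µM of hemin, an oxidized form of heme used to induce erythroid genes. The cells received 3 DAC pulses, each lasting 24 h, and were harvested 144 h from the start of the first, and no vehicle is named for the untreated cells. The treatment text shared by the samples names DAC at 50 and 100 nM, whereas the array title gives 20 nM, so the dose printed here is that of the title. With 1 array a side, every difference compares 2 arrays and carries no test, and nothing in the labels says how many cultures stood behind an array. A change in the share of cells of one type and a change in RNA per cell cannot be told apart in such bulk RNA.

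DAC is a deoxycytidine analogue that is phosphorylated in the cell, incorporated into DNA during replication, and there traps DNA methyltransferases, so that methylation of cytosines in CpG dinucleotides is lost as cells divide. Genes often discussed under this drug are germline genes, tumor-associated genes with methylated CpG islands, interferon-stimulated genes and the fetal globins. DNA methylation itself was not measured in these arrays, and all values below are mRNA levels as log2 GCRMA values, in which 1 unit is a 2-fold difference.

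HEL cells of both arrays had the marker pattern of their label. The probe sets shared by the fetal globin genes HBG1 and HBG2 reached 15.65 in untreated and 15.83 in DAC-treated cells, GATA1 was at 11.52 and 11.11, KLF1 at 11.11 and 11.00, and the platelet integrin ITGA2B at 13.01 and 12.65. The epithelial markers EPCAM and KRT19 stayed under the floor of 5, below which values were not read as a level. LYZ, a marker of monocytes and granulocytes, was at 10.26 and 10.20, and COL1A1, a fibroblast collagen, at 7.08 and 7.33. CD3E, MS4A1, CD14 and COL1A2 were not analysed here.

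A gene was taken as measured if its log2 value was at least 5 in at least 1 of the 3 HEL arrays, which gave 9641 genes. Of these, 408 (4.23%) were over 1.5-fold higher with DAC and 583 (6.05%) over 1.5-fold lower. Over 2-fold, 102 genes (1.06%) were higher and 152 (1.58%) lower, and over 4-fold 10 were higher and 13 lower. The median difference over all genes was 0.00, and the median absolute log2 difference was 0.20. The scatter of both arrays shows most genes between the 1.5-fold lines and a spread that widens toward dim genes.

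**Figure D1:**
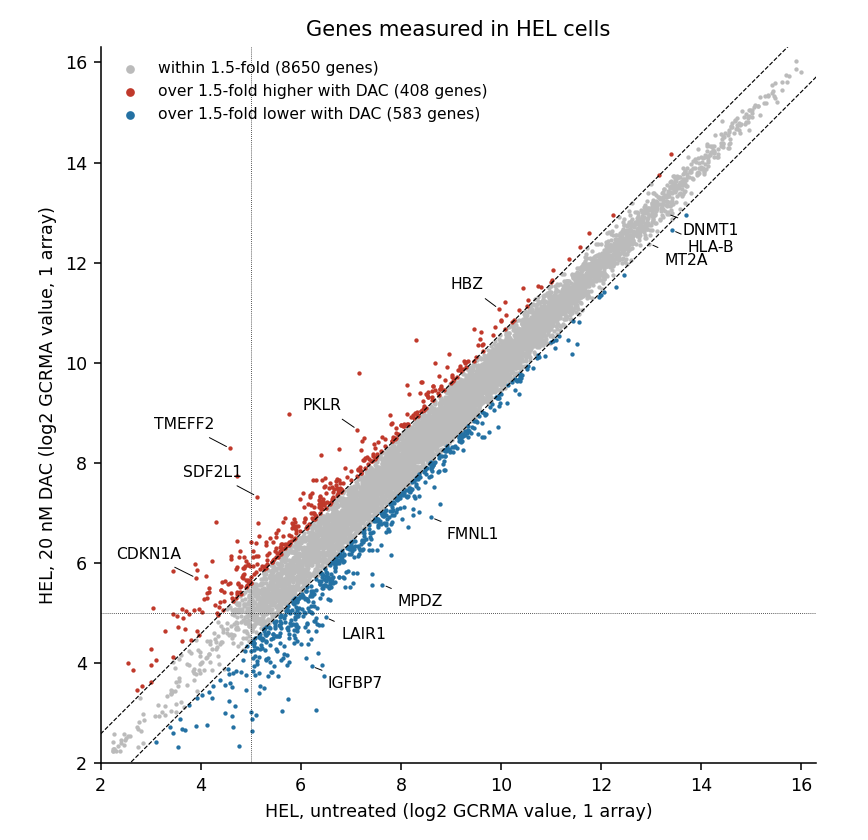
Log2 GCRMA value of each of the 9641 genes measured in HEL, in untreated cells (horizontal axis) and with 20 nM DAC (vertical axis), 1 point a gene. Dashed lines mark 1.5-fold, dotted lines the floor of 5, and 408 genes lie above and 583 below the dashed band, many of them near the floor.

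The share of genes beyond 1.5-fold depended on brightness. It was 42.7% among genes with a mean level under 5, 24.9% between 5 and 6, 13.5% between 6 and 8, 6.18% between 8 and 10 and 2.33% at 10 or above. Of the genes over 2-fold higher, 48 of 102 were under 5 in untreated cells, and of those over 2-fold lower, 94 of 152 were under 5 with DAC. When values under 5 were raised to 5, 65 genes remained over 2-fold higher and 80 over 2-fold lower. Where a gene lay under 5 on one side, its difference is given below as a bound counted from 5.

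No second HEL array of either condition was given, and the closest measure of how far like arrays lie apart is the pair of untreated K562 arrays. Over the 8958 genes measured in both lines, 23.1% differed over 1.5-fold between these 2 untreated arrays, against 8.60% between DAC-treated and untreated HEL cells. The differences in HEL were thus smaller in number than those between 2 K562 arrays of the same label. With PMA, 3063 of 9641 genes (31.8%) differed over 1.5-fold from the same untreated HEL array.

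**Figure D2:**
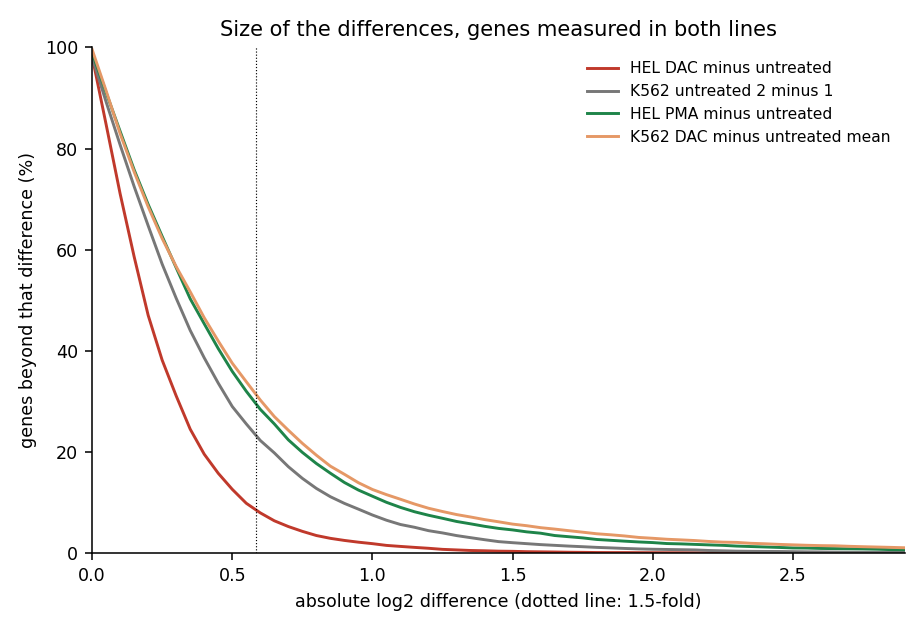
Percentage of the 8958 genes measured in both lines (vertical axis) that lie beyond a given absolute log2 difference (horizontal axis), for 4 comparisons of arrays. At 1.5-fold (dotted line) the line for DAC in HEL stands at 8.60%, and that of the untreated K562 pair at 23.1%.

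Probe sets of the same gene gave a second reading on the same 2 arrays. Of the 408 genes over 1.5-fold higher, 156 had another kept probe set, and in 56 of these (35.9%) another probe set was also over 1.5-fold higher, against 13.1% of all 4517 genes with several kept probe sets. Of the 583 genes over 1.5-fold lower, 198 had another kept probe set, and in 76 (38.4%) another was over 1.5-fold lower, against 11.8%. In 25 genes, the probe set used was beyond 1.5-fold one way and another kept probe set beyond it the other way. These were 9 of the 156 (5.77%), against 11.8% with another over 1.5-fold lower among all genes with several kept probe sets. The others were 16 of the 198 (8.08%), against 13.1% with another higher.

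Promoters of 4 genes are shown because they span the sequence types met among the differences. TMEFF2 had the largest difference of all genes, MAGEA12 belongs to the germline genes, PKLR was higher by 3 of 3 kept probe sets, and FMNL1 was lower in both cell lines. Each run holds the 250 bases before and 50 bases after the start in the RefSeq table (GRCh38.p14), 5′ to 3′ on the strand of the gene, with every CG in capitals. The windows are chr2:192194884-192195183 on the minus strand for TMEFF2, chrX:152733507-152733806 on the plus strand for MAGEA12, chr1:155301389-155301688 on the minus strand for PKLR and chr17:45221635-45221934 on the plus strand for FMNL1. The PKLR window lies within the annotated interval of the gene (155289293 to 155308654 of chromosome 1), so it belongs to an internal start.
TMEFF2: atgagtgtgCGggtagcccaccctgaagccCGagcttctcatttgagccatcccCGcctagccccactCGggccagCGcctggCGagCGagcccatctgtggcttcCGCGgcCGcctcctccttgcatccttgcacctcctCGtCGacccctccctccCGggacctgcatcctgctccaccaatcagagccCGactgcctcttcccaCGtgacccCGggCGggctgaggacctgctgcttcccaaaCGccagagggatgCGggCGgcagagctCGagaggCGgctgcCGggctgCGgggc
MAGEA12: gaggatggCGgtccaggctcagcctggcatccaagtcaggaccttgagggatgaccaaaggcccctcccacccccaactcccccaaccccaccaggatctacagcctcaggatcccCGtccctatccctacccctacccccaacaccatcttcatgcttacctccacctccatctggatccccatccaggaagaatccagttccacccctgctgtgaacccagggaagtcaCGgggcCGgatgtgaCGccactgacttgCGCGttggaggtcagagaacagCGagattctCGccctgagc
PKLR: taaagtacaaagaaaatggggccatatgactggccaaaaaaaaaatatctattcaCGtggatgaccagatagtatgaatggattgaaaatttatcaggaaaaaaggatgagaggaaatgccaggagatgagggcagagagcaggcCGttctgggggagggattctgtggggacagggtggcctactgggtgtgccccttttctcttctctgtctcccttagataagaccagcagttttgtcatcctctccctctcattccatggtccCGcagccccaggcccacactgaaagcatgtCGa
FMNL1: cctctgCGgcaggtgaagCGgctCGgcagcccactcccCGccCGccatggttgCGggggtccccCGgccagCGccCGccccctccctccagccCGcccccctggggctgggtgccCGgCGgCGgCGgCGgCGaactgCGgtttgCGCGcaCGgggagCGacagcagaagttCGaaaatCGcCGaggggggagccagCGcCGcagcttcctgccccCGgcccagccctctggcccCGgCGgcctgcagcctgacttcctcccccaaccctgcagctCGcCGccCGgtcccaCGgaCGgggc
TMEFF2 held 24 CG at a GC content of 69.3%, and FMNL1 held 34 at 77.7%. MAGEA12 held 9 CG, and PKLR 4. The median over the promoters of all measured genes was 27.

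TMEFF2, which encodes a membrane protein with follistatin-like domains and is often methylated in tumors, was at 4.58 in untreated HEL cells and 8.29 with DAC, a difference of at least 3.29. With PMA it was at 5.81. The untreated K562 arrays read 6.16 and 5.04, and K562 with 100 nM DAC read 8.31. The DAC arrays were thus the highest of the 9 arrays for TMEFF2, with no overlap with the other 7. The gene was read by 1 probe set.

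Among genes at 5 or above in both arrays, the largest differences upward were those of H3-3A, RPL27A, SDF2L1, ND6 and PIK3R1. With PMA these genes were at 7.76, 8.67, 7.62, 9.42 and 7.09, each also above the untreated array. Both comparisons share that 1 untreated array, and whether the differences are particular to DAC was not tested. SDF2L1, of a chaperone complex of the endoplasmic reticulum, was at 5.13 untreated and 7.33 with DAC, by 1 probe set. HSPA5, the main chaperone of that compartment, was at 11.36 and 12.07, and its other kept probe set was higher by 0.84. ND6, a subunit of respiratory complex I encoded in mitochondrial DNA, was at 8.30 and 10.46. PIK3R1, a regulatory subunit of phosphoinositide 3-kinase, was at 6.41 and 8.16 in the probe set used and lower by 1.18 in its other probe set, so its direction was not settled.

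Several of the largest values belonged to highly expressed genes read by a dim probe set. H3-3A, a replication-independent histone H3, was at 5.76 untreated and 8.97 with DAC in its own probe set. The other 8 probe sets that list H3-3A together with further genes reached 14.89 and differed by -0.56 to 0.32. RPL27A, a ribosomal protein, was at 7.16 and 9.79, whereas its brightest shared probe set was at 15.15 and 15.12. RPLP2, of the ribosomal stalk, was at 4.73 and 7.74, whereas its shared probe set was at 14.85 and 14.61. For these 3 genes the difference was therefore seen in 1 dim probe set and not in the bright ones.

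PKLR, the pyruvate kinase of liver and red cells, was higher in every kept probe set. The brightest was at 7.13 untreated, 8.67 with DAC and 3.85 with PMA, and the others were higher with DAC by 1.86 and 1.92. Untreated K562 cells gave 9.28 and 6.92 for PKLR, and those with DAC 12.67. The remaining genes of this rank were H2AC6 (a histone H2A, 5.15 to 6.81), SLC16A7 (a monocarboxylate transporter, 6.75 to 8.29), NKTR (a cyclophilin-related protein, 8.11 to 9.56) and TCTN2 (a protein of the ciliary transition zone, 6.23 to 7.66). SLC16A7 and NKTR each also had a kept probe set that was lower with DAC, by 0.61 and 0.33. With PMA, H2AC6 was at 7.71, SLC16A7 at 8.38 and NKTR at 9.73, above their values with DAC, and TCTN2 was at 5.71.

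Genes under 5 in untreated cells with the highest values under DAC were, after TMEFF2 and RPLP2, RAB11B (a GTPase of recycling endosomes, at least 1.81 higher), TMEM200B (at least 1.43), the zinc finger gene ZNF560 (at least 1.24) and NXN (nucleoredoxin, at least 1.13). TIMM23B, ZCCHC2, the relaxin gene RLN1 and the membrane-bound transcription factor CREB3 followed, at least 1.04 to 1.13 higher. ZCCHC2 had another kept probe set that was lower by 0.29. With PMA, ZCCHC2 was at 6.42 and CREB3 at 6.35, above their values with DAC, and the other genes named here were lower with PMA than with DAC. ZNF560 and RLN1 were at 2.25 in both untreated K562 arrays and with DAC in that line.

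Among genes at 5 or above in both arrays, the largest differences downward were led by MPDZ, DPY19L2 and FMNL1. MPDZ, a scaffold with many PDZ domains, was at 7.63 untreated and 5.57 with DAC, and its other probe set read 5.69 and 4.56, at least 0.69 lower. DPY19L2, known from sperm head formation, was at 7.42 and 5.57, and its other probe set read 5.62 and 4.52, at least 0.62 lower. FMNL1, a formin that assembles actin in blood cells, was at 8.60 and 6.91, and its other probe set read 5.10 and 4.37, at least 0.10 lower and close to the floor in both arrays.

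FMNL1 was at 8.59 and 8.69 in untreated K562 cells and at 4.39 with DAC, so it was lower with DAC in both lines. MPDZ and DPY19L2 were at 2.25, the lowest value of the arrays, in K562 with and without DAC. Next in HEL came INO80B, of a chromatin remodelling complex (7.43 to 5.78), C1orf226 (7.80 to 6.17), the HOX cofactor PBX2 (8.77 to 7.18), NAALAD2, a peptidase (6.98 to 5.52), LZTR1, an adaptor of a ubiquitin ligase (7.05 to 5.61), ADAMTSL4 (8.15 to 6.72) and CACNA2D1, a calcium channel subunit (6.88 to 5.52). The other probe sets of PBX2 differed by only -0.14 and -0.02.

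Of the genes under 5 with DAC, LAIR1 was the brightest in untreated cells. LAIR1, an inhibitory receptor of leukocytes, was at 6.49 untreated and 4.91 with DAC, and its other probe set read 5.61 and 3.59, at least 0.61 lower. TEK, the angiopoietin receptor, was at 6.35 and 4.20, at least 1.35 lower. FOXO4, a transcription factor downstream of insulin signalling, was at 6.36 and 4.76, and LITAF, a protein of late endosomes, at 6.31 and 4.65, with its other probe set lower by 0.88. TERLR1, PARP10, CLVS2, SNORA72, FGD4 and RGS1 made up the rest, each at least 1.30 to 1.47 lower. RGS1, a regulator of G protein signalling, was at 6.30 and 3.06, and a second probe set read it at 3.04 and 2.43, under the floor in both arrays.

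Genes that copy, write or erase DNA methylation stayed within 1.5-fold in the brightest probe set of each of the 19 measured members (0 higher, 0 lower, against 4.23% and 6.05% of all genes), and their median was 0.01. Dimmer kept probe sets of 2 members lay beyond it. HELLS, a chromatin remodeller needed for DNA methylation, was at 8.99 and 9.19 in its brightest probe set, whereas another, at 5.23 untreated, was higher by 1.77 with DAC and a further one read 5.54 and 6.69. MBD4, a glycosylase that repairs deaminated methylcytosine, was at 10.54 and 10.74, whereas another probe set read 6.35 and 5.15. DNMT1, the maintenance methyltransferase that DAC traps as a protein, was at 13.32 untreated and 12.98 with DAC. DNMT3B was at 11.30 and 11.47, and UHRF1, which recruits DNMT1 to newly copied DNA, at 11.00 and 11.15. The widest members were TET2, which oxidizes methylcytosine, at 7.55 and 7.09, and TDG, which excises its oxidized forms, at 10.28 and 10.68. Genes of DAC uptake and activation also stayed within 1.5-fold in 16 of 16 measured members by the brightest probe set. Of all genes, 4.23% were higher and 6.05% lower. ABCB1 was at 9.35 and 9.44 in that probe set, whereas a probe set shared with another gene read 9.92 and 9.23. The other kept probe set of ABCB1 read 4.96 and 4.17, under the floor in both arrays. DCK, the kinase that activates DAC, was at 11.33 and 11.14, the nucleoside transporter SLC29A1 at 9.46 and 9.97, and RRM2, a subunit of ribonucleotide reductase, was higher by 0.57.

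Few germline genes were measured in HEL. Of 95 listed genes 21 had a probe set of their own, 8 were measured, 2 exceeded 1.5-fold upward and 0 downward, against 4.23% and 6.05% of all genes. The median difference was 0.37, and 7 of 8 members lay above 0, against 48.9% of all genes. MAGEA6 was at 5.13 untreated and 5.97 with DAC, MAGEA12 at 4.43 and 5.62 (at least 0.62 higher), and CTAG2 at 5.20 and 5.61. MAGEA12 was also at 4.43 with PMA, so it counted as measured only through the DAC array. The median was 0.078 with a minimum level of 6, which left 5 genes, and 0.00 with no minimum, over 21 genes. PRAME was at 9.91 and 10.27, and LIN28B, a regulator of let-7 microRNAs, at 11.62 and 11.61. The MAGEA genes are near-identical in sequence, so their probe sets may share signal, and the 3 kept probe sets shared between germline genes differed by -0.31 to 1.07.

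Genes often silenced by promoter methylation went both ways, with a median of -0.02 over 31 measured members, of which 5 were over 1.5-fold higher and 5 lower, against 4.23% and 6.05% of all genes. Beside TMEFF2, the higher members were THBS1, CDKN1A, TNFRSF10D and S100A2. THBS1, the matrix protein thrombospondin, was at 6.05 untreated and 7.40 with DAC, and its other probe set at 2.30 and 5.35. CDKN1A, the cyclin-dependent kinase inhibitor p21, was at 3.92 and 5.70, at least 0.70 higher, and at 10.10 with PMA. S100A2 was under 5 in both arrays. The lower members were IGFBP7 (6.21 to 3.94), PTGS2 (6.33 to 5.10), S100P (6.38 to 5.58), MT1G (9.79 to 9.11) and CLU (10.54 to 9.93). IGFBP7, a secreted binding protein of insulin-like growth factors, was thus at least 1.21 lower.

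Imprinted genes, expressed from 1 parental allele under control of methylation, had a median of 0.10. Of 18 measured members 1 was over 1.5-fold higher and 0 lower, against 4.23% and 6.05% of all genes. That member was SLC67A1, at 5.28 and 5.94. ZNF331 was at 6.45 and 6.83 in the probe set used, and lower by 0.89 in its other kept probe set. MEST was at 10.91 and 11.10.

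Interferon-stimulated genes did not stand above the other genes. Of 35 measured members 2 passed 1.5-fold upward and 1 downward, against 4.23% and 6.05% of all genes. Below 0 lay 23 members, against 49.4% of all genes, and the median was -0.11. The higher members, IFI6 and GBP1, and the lower one, SAMD9L, all lay close to or under 5. ISG15, a ubiquitin-like protein, was at 9.18 untreated and 9.08 with DAC, IFIH1, a sensor of double-stranded RNA, at 8.11 and 7.60, and MX2 at 8.48 and 8.07.

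Antigen presentation genes were lower in 16 of 19 measured members, with a median of -0.32, 0 over 1.5-fold higher and 3 lower. Of all genes, 49.4% lay below 0, 4.23% were over 1.5-fold higher and 6.05% lower. Over the 13 members measured in both lines, the untreated K562 pair differed by a median of 0.37 (replicate 2 minus 1). ERAP1, which trims peptides, was at 7.35 untreated and 6.37 with DAC, PSMB9, an immunoproteasome subunit, at 10.39 and 9.69, and HLA-B, a class I heavy chain, at 13.42 and 12.65. The other probe sets of ERAP1 differed by -0.09 and 0.37 and those of HLA-B by -0.29 and 0.00, and class I genes share sequence. HLA-E was at 11.56 and 10.97, with its other probe sets lower by 0.41 and 0.85. B2M, the invariant light chain, was at 14.47 and 14.60.

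The metallothioneins, small proteins that bind zinc and copper, were lower in 6 of 6 measured members, by 0.34 to 0.68. Their median was -0.55, and 49.4% of all genes lay below 0. MT2A was at 12.96 untreated and 12.38 with DAC, MT1X at 12.05 and 11.42, MT1G at 9.79 and 9.11 and MT1F at 10.25 and 9.74. MT1G and MT1X passed 1.5-fold, as did 6.05% of all genes downward. In K562 the same 6 genes were higher with 100 nM DAC, with a median of 1.81. The untreated K562 pair itself differed by a median of -0.51 over them (replicate 2 minus 1). These genes are close copies of each other and their probe sets may share signal.

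Of the 6 measured globin genes, 1 was over 1.5-fold higher (HBZ) and 1 lower (BGLT3), against 4.23% and 6.05% of all genes. HBZ, the embryonic alpha-like globin, was at 9.96 untreated, 11.08 with DAC and 4.38 with PMA. HBE1, the embryonic beta-like globin, was at 14.41 and 14.84, HBD at 8.06 and 8.55, HBB at 9.80 and 9.92 and HBQ1 at 8.11 and 8.24. BGLT3, a non-coding RNA of the beta globin cluster, was at 8.25 and 7.08. The 6 probe sets shared by HBA1 and HBA2 were higher by 0.31 to 0.42 and the 3 shared by HBG1 and HBG2 by 0.17 to 0.27, at levels from 14.77 upward that lie close to the top of the array's range.

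Over the 6 measured genes of the list the median was 0.28 in HEL and 1.71 in K562, where the dose was 100 nM. In K562, HBZ was at 14.71 and 12.05 untreated and at 16.27 with DAC, and the untreated pair itself differed by a median of -1.91 over this list (replicate 2 minus 1).

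Heme synthesis genes had a median of 0.17, with 12 of 12 measured members within 1.5-fold. ALAS2, the erythroid enzyme of the first step, was at 9.66 and 10.16, PPOX at 8.99 and 9.40, and ALAD at 8.57 and 8.19. Red cell membrane genes had a median of 0.00, with 1 of 22 over 1.5-fold higher (CD59, 5.85 to 6.77) and 1 lower (ICAM4, 10.74 to 10.15). Of all genes, 4.23% were over 1.5-fold higher and 6.05% lower. RHD, the Rh blood group antigen, was at 10.95 and 11.41, and its other kept probe sets were higher by 0.68 and 0.82. RHAG, its partner, was at 13.66 in both arrays. In K562 the medians of these lists were 0.76 and 0.72.

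Transcription factors of both lineages had a median of -0.10. Of 26 measured members 0 were over 1.5-fold higher and 2 lower, against 4.23% and 6.05% of all genes. SOX6 (6.69 to 6.05) and MAFG (5.94 to 5.29) were the lower ones. NFE2 was at 12.32 in both arrays, LMO2 at 12.16 and 12.30, and SPI1, the myeloid factor PU.1, at 8.44 and 7.94.

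Megakaryocyte and platelet genes had a median of -0.01, with 4 of 27 over 1.5-fold higher and 2 lower, against 4.23% and 6.05% of all genes. The higher ones were THBS1, the adhesion receptor CD226 (8.16 to 9.38), the tetraspanin CD9 (5.30 to 6.35) and the platelet chemokine PF4 (6.50 to 7.39). The lower ones were MMRN1 (7.14 to 6.14) and the ATP-gated channel P2RX1 (7.95 to 7.28). With PMA, measured against the same untreated array, PF4 was at 13.34, MMRN1 at 9.15 and the median of the list was 0.99.

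Markers of other blood cells were examined as well. Monocyte and granulocyte genes were lower in 17 of 19 measured members, against 49.4% of all genes, with a median of -0.22. Over the 13 members measured in both lines, the untreated K562 pair itself differed by a median of 1.45 (replicate 2 minus 1). Of the 19 members, 1 was over 1.5-fold lower, against 6.05% of all genes. It was the signalling adaptor TYROBP, at 8.74 untreated and 7.81 with DAC. The mast cell protease CPA3 was at 12.52 and 11.97. Of the lymphocyte markers 5 of 22 were measured, among them the T cell receptor subunit CD3D at 3.45 and 5.85 and CD2 at 5.58 and 6.24, and IL7R was under 5 in both arrays. CD3D, at least 0.85 higher, was at 3.05 with PMA, so it counted as measured only through the DAC array. In K562, CD3D was at 10.42 and 11.01 untreated and lower with DAC, at 8.51. Of the stroma and epithelium markers 7 of 20 were measured, with TEK lower and CDH5 under 5 in both arrays. The part of other cells in these values was not tested.

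Proliferation genes were all measured, 46 of 46, with a median of 0.09. Upward, 3 passed 1.5-fold, and downward 0, against 4.23% and 6.05% of all genes. GINS1, of the replicative helicase, was at 10.00 untreated and 10.86 with DAC, UBE2C, a ubiquitin-conjugating enzyme of mitosis, at 9.85 and 10.55, and TOP2A, the topoisomerase of dividing cells, at 11.75 and 12.59 in the probe set used but lower by 0.28 in another bright one. MKI67 was at 10.07 and 10.15. Genes of p53 and cell cycle arrest had 3 of 24 higher (CDKN1A, CDKN2D and TNFRSF10A) and 1 lower (TP53I3), with a median of 0.05. The other probe sets of TNFRSF10A differed by -0.45 and 0.06. DNA repair genes had 0 of 29 higher and 1 lower (XRCC3, 6.10 to 5.44), with a median of 0.08.

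The remaining lists had members over 1.5-fold on both sides, and their counts stand beside 4.23% higher and 6.05% lower over all genes. Stress genes had 4 of 23 higher and 3 lower, with a median of 0.05 that was -0.11 when all kept probe sets of a gene were averaged. HSPH1, a heat shock protein, was at 10.53 and 11.25 and TRIB3, a pseudokinase of the ATF4 response, at 8.68 and 9.46, whereas DDIT3, a transcription factor of the same response, was at 7.75 and 6.68 and PHGDH, of serine synthesis, at 9.52 and 8.82. Histone genes had 2 of 8 higher, H2AC6 and H2BC12 (11.05 to 11.86), and 2 lower, H1-10 (12.45 to 11.76) and H2BC21. H2BC21 was under 5 in both arrays. HOX genes and partners had 1 of 13 higher, HOXB5 (4.92 to 5.57), and 2 lower, PBX2 and HOXB9 (7.70 to 6.80). Cytokine and NF-kappaB genes had 2 of 24 higher, SOD2 (6.31 to 6.93) and TRAF1, and 1 lower, IER3. TRAF1 and IER3 were under 5 in both arrays. Chromatin repressors had 1 of 28 higher, the heterochromatin protein CBX5 (10.07 to 11.21), with 4 other kept probe sets higher by 0.08 to 1.15 and another at 4.12 and 5.07, and 1 lower, EZH1 (6.64 to 5.99).

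DAC in K562 shares no array with DAC in HEL, but the doses were 100 and 20 nM. The sizes of the responses are therefore given side by side. In K562, 1281 of 8958 genes (14.3%) were over 1.5-fold higher than the mean of the untreated arrays and 1520 (17.0%) lower. Of the 339 genes over 1.5-fold higher in HEL among these, 134 were also higher in K562, which is 39.5% of the HEL genes and 10.5% of the K562 genes, and 22 were over 1.5-fold lower. Of the 431 genes lower in HEL, 148 were lower in K562, which is 34.3% of the HEL genes and 9.74% of the K562 genes, and 44 were higher. The share of HEL genes was thus above the share among all genes in both directions.

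The same held among bright genes. With a mean level of at least 8 in both lines, 40 of 101 higher genes (39.6%) were higher in K562, against 11.7% of the 4960 genes, and 26 of 79 lower genes (32.9%) were lower, against 13.6%. Without untreated K562 replicate 1 or 2, the share of higher HEL genes that were higher in K562 was 44.0% or 33.0%, against 19.1% or 11.7% of all genes.

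Across all 9 arrays, 8421 genes were at 5 or above in both DAC arrays. Of these, 15 were over 1.5-fold higher in both DAC arrays than in each of the other 7. A further filter for lower genes, 5 or above in each of the other 7, left 7863 genes. Of these, 5 were over 1.5-fold lower in both DAC arrays. These genes were picked on these values, so they are given as a description. TMEFF2, RPLP2, RAB11B, TMEM200B, TAC3 and RPL27A cleared the other arrays by 2-fold. TMEM200B was at 6.43 and 6.70 in the DAC arrays of HEL and K562 and between 4.74 and 5.27 elsewhere, and TAC3, which encodes neurokinin B, at 6.59 and 7.02 and between 3.15 and 5.51 elsewhere. SOX12, PGAM5, SDC2, DAPP1, TSPAN14, ATP1B1, OSBP2, PIK3R1 and ZFYVE21 followed. As given above, RPLP2 and RPL27A were higher in HEL in a dim probe set and not in the bright ones. PIK3R1 was lower by 1.18 in its other probe set in HEL. The 5 lower genes were ANXA6, LOC374443, UTRN, LRRC8C and IFT81. ANXA6, a calcium-dependent membrane binding protein, was at 4.51 and 4.07 in the DAC arrays and at 5.52 or above elsewhere, and UTRN, a dystrophin relative, at 6.66 and 6.44 and at 7.27 or above elsewhere.

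**Figure D3:**
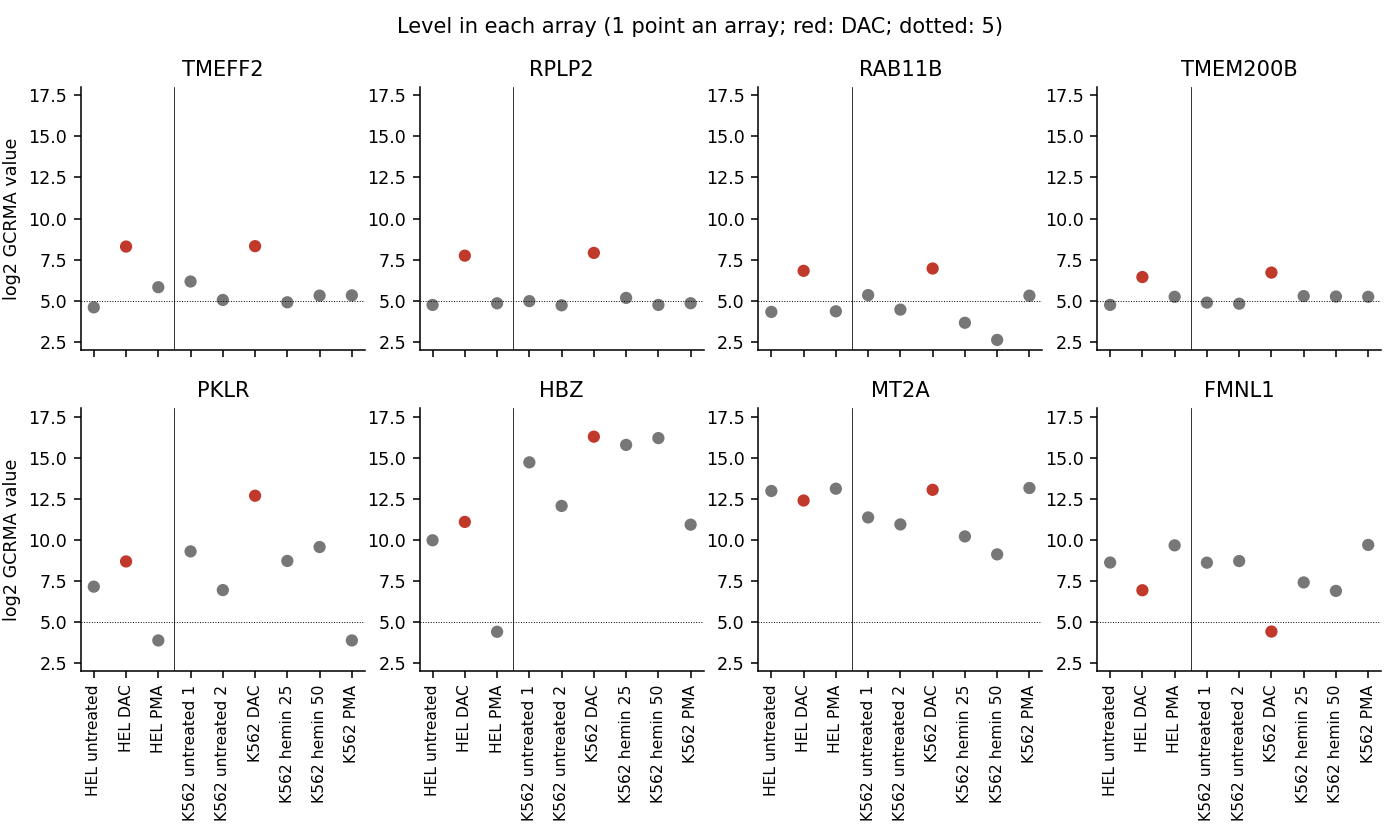
Log2 GCRMA value of 8 genes in each of the 9 arrays, 1 point an array, with DAC arrays in red and the floor of 5 as a dotted line. TMEFF2, RPLP2, RAB11B and TMEM200B are highest in both DAC arrays, PKLR and HBZ are higher with DAC than in untreated cells of each line, FMNL1 is lower in each line, and MT2A is lower in HEL but higher in K562.

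Promoters of the genes that differed held fewer CpG-rich windows than those of all measured genes. A window was called CpG-rich if its observed over expected CpG ratio was at least 0.6 and its GC content at least 50%. RefSeq gave a promoter for 83.5% of measured genes. Of these promoters 82.9% were CpG-rich, against 72.0% of the 82 promoters of genes over 2-fold higher and 57.1% of the 126 promoters of genes over 2-fold lower. Windows with a ratio under 0.4 made up 8.55%, 18.3% and 22.2%. Genes under 5 untreated and over 2-fold higher with DAC had 73.7% CpG-rich windows, over 38 promoters.

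Brightness moved with this share, since dim genes had fewer CpG-rich promoters and more differences. Among genes with a mean level of at least 8, 85.8% of all promoters, 89.4% of those over 1.5-fold higher and 74.8% of those over 1.5-fold lower were CpG-rich. Under a mean level of 6 the shares were 70.5%, 70.6% and 61.0%. Within these levels the share for higher genes was close to that of all genes, and the share for lower genes was below it. Between 6 and 8 the shares were 82.1%, 75.4% and 78.6%, so there both groups were below it.

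By chromosome, the X chromosome held 3.18% of measured genes, 2.94% of those over 2-fold higher and 3.29% of those over 2-fold lower. The chromosomes named next were picked after their values were seen, and their counts are small. Chromosome 18 held 1.35% of measured genes, 5 of the 102 genes over 2-fold higher and 0 of the 152 lower. Chromosome 20 held 2.78%, 7 of 102 and 1 of 152, and chromosome 19 held 6.92%, 12 of 102 and 15 of 152.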

How the data were processed

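mRNA of HEL cells, untreated, with DAC and with PMA, and of K562 cells was measured on 9 Affymetrix arrays. The authors deposited log2 values per probe set made with GCRMA, per the labels (no version named), which corrects background from probe sequence, sets arrays on one scale by quantiles and summarizes probes. A general shift of expression would thus be lost. The table holds 27306 probe sets, picked by a rule not given in the sources used here.

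From these values, Python 3.11.15 with pandas 2.3.3 and numpy 2.4.6 was used. By the platform annotation 22858 probe sets belong to 1 gene and 1164 to several, and 3284 are not listed. Only those with 1 gene name a gene, apart from the globin pairs and the shared probe sets described as such. Probe sets that reached 5 on the log2 scale in any of the 3 HEL arrays were kept (16962), and each gene took the one with the highest mean over HEL arrays. Differences are DAC minus untreated, counted at 1.5-fold, with no test. Counting was tested on simulated data. The genes, the 24 lists and the alternatives were chosen with earlier results of these data known. Named were the 10 largest differences each way at 5 or above in both arrays, the 10 brightest genes under 5 on either side, up to 4 members of each list by size, and the measured members of the methylation, decitabine and globin lists. Other list members and the genes that stood apart in both DAC arrays were named after their values were seen. The number of arrays limits the precision. Alternatives were other normalizations, filters, probe set choices, fold thresholds, untreated K562 arrays and CpG thresholds. The paper at hand does not describe HEL cells or DAC.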

Additional observations from a re-analysis of the deposited data

Results flagged for a closer look

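Probe sets that name no single gene lay outside the gene comparisons and also differed between the HEL arrays. Of 889 kept probe sets that list several genes, 14 were over 2-fold higher with DAC (1.57%) and 18 over 2-fold lower (2.02%). Of 1606 kept probe sets without a listed gene, 51 were over 2-fold higher (3.18%) and 49 over 2-fold lower (3.05%), with differences from -2.06 to 3.20. Over all measured genes the shares were 1.06% and 1.58%. With 1 array a side these values carry no test.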

How the results depend on the processing

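The counts over 1.5-fold stayed within 1.5 times the reported ones under quantile normalization, median centring, a minimum of 6 or none, a minimum in the 2 arrays compared, the mean of all kept probe sets and a floor of 5. They ran from 335 to 579 genes higher and from 450 to 799 lower. With the probe set that varied most, 646 genes were higher, against 408, and 756 lower, against 583. A 2-fold threshold left 102 and 152 genes, and a 4-fold one 10 and 13. Of 192 recomputed list medians, 17 moved by more than a yardstick from the 2 untreated K562 arrays. The yardstick was the absolute median difference of the list between these arrays, divided by the square root of 2. It rests on 1 pair of arrays of another line. It was 1.35 for globin, 1.03 for monocyte and granulocyte and 0.00 for megakaryocyte genes, so the count of 17 depends on it. The germline median of 0.37 was 0.078 at a minimum of 6 and 0.00 with none, the HOX one of -0.05 was -0.10 and 0.00 there, and the cytokine one of -0.10 was -0.0092 with none. With the probe set that varied most, the medians were 0.068 for DNA methylation (0.01 before), 0.054 for heme synthesis (0.17) and 0.40 for histones (0.22). The stress median of 0.05 was -0.11 with that probe set and with the mean of all. With a yardstick of 0.00, the megakaryocyte median of -0.014 counted as moved at any change. It was -0.022 under quantile normalization, -0.010 under median centring, -0.0069 with a minimum of 6 and -0.026 with none. With a minimum in the 2 arrays compared it was -0.038, with the mean of probe sets -0.056 and with the one that varied most 0.049. Of 159 genes followed, a change of sign was counted only for those over 1.5-fold in the reported values. Of those, NKTR (-0.33), HLA-B (0.0038), TOP2A (-0.28) and TNFRSF10A (-0.45) changed sign with the probe set that varied most. Changes of sign among genes within 1.5-fold were not counted. The share of HEL genes also over 1.5-fold in K562 ran from 33.0% to 44.0% for higher and from 28.3% to 40.8% for lower genes when an untreated K562 replicate was left out. At a stricter CpG threshold (ratio 0.75, GC 55%), 65.9% of all promoters, 56.1% of those over 2-fold higher and 44.4% of those over 2-fold lower were CpG-rich. No paired analysis was possible because each HEL condition has 1 array. Signal near the floor limits what dim genes can show.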
